A study of Mus musculus with 20 samples.

Results

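The genes described here encode the factors that start and drive protein synthesis on cytosolic ribosomes, together with the proteins that bind, phosphorylate or methylate them. They were chosen by symbol alone, as every gene named Eif1 to Eif6, Eef1 or Eef2 with its suffixes, 4E-binding proteins included and the eIF2 kinases (Eif2ak genes) left out, which gave 60 of 24421 symbols in the count table. Eif3j1 and Eif3j2, a near-identical pair on chromosomes 2 and 18, held equal counts in all 20 libraries and were treated as 1 measurement, which left 59. The mRNAs were measured by RNA sequencing of small pieces of kidney from mice on a mixed C57BL/6 and 129/SvJ background. The groups were Fh1-/- and Fh1+/+ kidneys at day 5 and again at day 10 after induction, with 5 libraries each. Mice were between 10 and 12 weeks old and were induced with 3 intraperitoneal injections of 2 mg tamoxifen. Fh1-/- mice were homozygous for an allele with loxP sites around exons 3 and 4 of Fh1, the gene of the mitochondrial enzyme fumarate hydratase. The Fh1+/+ littermates lacked that allele. Both genotypes carried 2 copies of CreERT2 at Rosa26, which is expressed throughout the body, so that recombination was not limited to 1 kidney cell type or to the kidney.

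In initiation, eIF1 and eIF1A hold the small ribosomal subunit ready to scan, eIF2 carries the initiator tRNA as a complex with GTP, and eIF2B reloads eIF2 with GTP. The eIF3 complex holds the small subunit to the mRNA, and eIF4F, made of the cap-binding eIF4E, the scaffold eIF4G and the helicase eIF4A, opens the 5' end of the mRNA. The 4E-binding proteins sequester eIF4E until the kinase mTORC1 phosphorylates them. In elongation, eEF1A delivers aminoacyl-tRNA, eEF2 moves the ribosome along and eIF5A relieves stalling. Many of these proteins are controlled by phosphorylation, which mRNA levels do not measure.

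Total counts lay between 16654829 and 25001294 per library, with a median of 18547503. On the first principal component of all 20 libraries, which held 42.7% of the variance, Fh1-/- day 10 replicates 1 and 3 stood at 124.9 and 128, against a range from -31.4 to 30.2 in the other libraries. In these 2 libraries the summed level of 7 tubular injury genes was 137000 and 130000 CPM (counts scaled to a common library size with TMM factors), against 3040 to 13800 CPM in the other 3 Fh1-/- day 10 libraries and 1150 to 2410 CPM in Fh1+/+ day 10 libraries. Most of each sum was Spp1, at 123000 and 115000 CPM in replicates 1 and 3 and 2690 to 13200 CPM in the other 3. The genes differed in those 3 libraries. Krt20 was at 4.63 to 6.08 CPM there, against 3.38 to 5.3 CPM in Fh1+/+ day 10 libraries. Lcn2 was at 13.7 to 139 CPM, against 7.43 to 28.5 CPM. The sum of 5 proximal tubule markers was 3300 and 3480 CPM in replicates 1 and 3, against 9130 to 12400 CPM in the other 3 and 10400 to 14500 CPM in Fh1+/+ libraries, so kidney markers were present in every library. All 10 leukocyte markers had reads, and their sum ran from 51.2 to 198 CPM in Fh1-/- and from 178 to 285 CPM in Fh1+/+ day 10 libraries. In pieces of tissue, fewer cells of a type and less RNA per cell cannot be told apart. The sources used here do not give the region of the kidney that each piece came from. The part of these marker differences in the values below was not tested. Fh1 itself was at 249 to 421 CPM in Fh1-/- and 224 to 258 CPM in Fh1+/+ kidneys at day 10, and at 200 to 239 CPM in Fh1-/- and 219 to 265 CPM in Fh1+/+ kidneys at day 5. The counts cover the whole gene and do not isolate exons 3 and 4, so they do not check the excision.

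Promoters were looked at because the members share a machinery. A window from 250 bases before to 50 bases after the annotated start was found in the RefSeq table (GRCm38.p6) for 46 of the 59 distinct members. The letters CACGTG, an E-box that reads the same on both strands and that Myc-family factors are known to bind, stood in the windows of 12 of the 46 members (26.1%), against 11.5% of the 10859 genes tested at day 10 that had a window. It was the only motif searched. Eif4e, Eif5a and Eef2k are among the 12 and are named in the results, but their windows are not printed. Their log2 fold changes at day 10 were 0.17, 0.23 and -0.085. The windows below show the motif in capitals for some of the members that the results return to, each 30 bases long and read 5' to 3' along the gene's strand.
Eif4a1: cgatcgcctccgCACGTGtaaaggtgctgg
Eif5a2: actaatccgcagCACGTGgggttgccaggg
Eif4g1: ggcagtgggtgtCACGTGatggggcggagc
Eif3f: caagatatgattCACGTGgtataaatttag
Eif3k: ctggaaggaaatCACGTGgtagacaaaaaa
Eef2: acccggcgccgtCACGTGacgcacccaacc
These lie at chr11:69672595-69672624 (minus strand), chr3:28781123-28781152 (plus), chr16:20672661-20672690 (plus), chr7:108934335-108934364 (plus), chr7:28981915-28981944 (minus) and chr10:81176576-81176605 (plus), in the order printed. Counted from 0 at the annotated start, the motif shown began at position -189 in Eif4a1, -142 in Eif5a2, -54 in Eif4g1, -68 in Eif3f, -44 in Eif3k and -43 in Eef2. At day 10 the median log2 fold change (Fh1-/- over Fh1+/+) was 0.285 over the 12 tested members with the motif and 0.315 over the 33 tested members with a window that lacked it.

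At day 10 most translation factor mRNAs were higher in Fh1-/- than in Fh1+/+ kidneys, by small amounts, and a few by more. Of 57 distinct members with enough reads to test, 52 had a log2 fold change above 0, with a median of 0.30, against a median of -0.0007 over all 14360 genes tested. The largest values were 2.66 for Eif4ebp3, 2.00 for Eif6, 1.41 for Eif4ebp1, 1.07 for Eif4a1 and 0.90 for Eif1a. By edgeR's quasi-likelihood test, 0 members passed both limits used in the study (adjusted p under 0.01, log2 fold change beyond 0.58 in size), against 0.0557% of all genes. At an unadjusted p under 0.05, 24 members (42.1%) were higher, against 15.1% of all genes, and 1 was lower, against 11.9%. In 12 members (21.1%) every Fh1-/- library lay above every Fh1+/+ library, against 4.42% of all genes, and in 0 members did every Fh1-/- library lie below. DESeq2, the tool the study used, called 4 members higher (Eif4ebp3, Eif1a, Eif6 and Eif4ebp1) and 0 lower, which was 7.02% of the members tested, against 3.49% of all genes called higher. With 1 edgeR fit of all 20 libraries, 7 members were called higher, against 3.82% of all genes: these 4 with Eif1, Eif5a2 and Eif2b3. Scaling by total counts alone moved the median of all genes to -0.17 and that of the members to 0.12, with 43 of 57 above 0, so the members stood 0.28 above the median gene, compared with 0.30 in TMM scaling. Leaving out Fh1-/- replicates 1 and 3 together, an alternative added once the data had been seen, left 49 of 57 above 0 with a median of 0.17, against 48.9% of all genes above 0, and 20 higher at an unadjusted p under 0.05, against 10.8% of all genes.

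**Figure D1:**
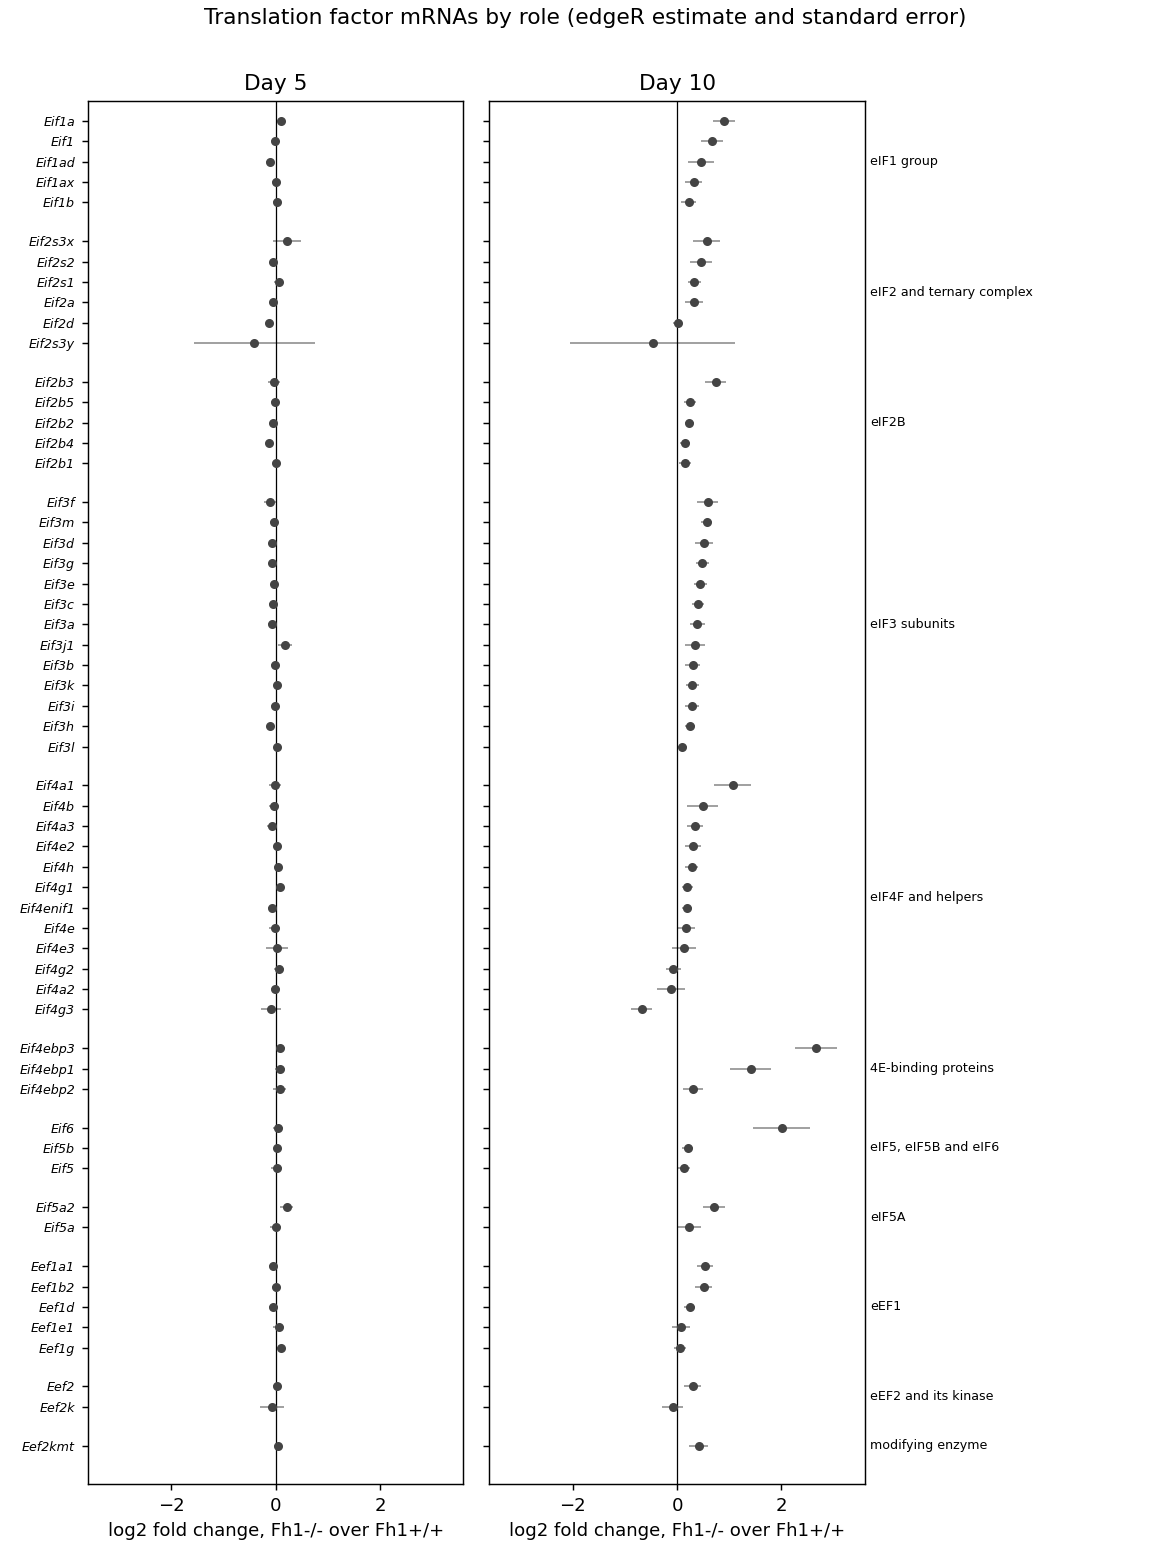
Log2 fold change of each translation factor mRNA (Fh1-/- over Fh1+/+, edgeR) at day 5 on the left and day 10 on the right, with members in rows by role and bars showing the standard error. At day 5 the members lie near 0 with a median of -0.01, and at day 10 52 of 57 lie above 0, with Eif4ebp3 at 2.66 farthest out.

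The 4E-binding proteins, which compete with eIF4G for eIF4E, held the largest difference. Eif4ebp3 (chromosome 18, positions 36664060 to 36665917 of GRCm38, plus strand) was at 179.6, 111, 187, 479.6 and 271 CPM in Fh1-/- day 10 replicates 1 to 5, against 63.6, 26.5, 44.4, 27.8 and 29.1 CPM in Fh1+/+ replicates 1 to 5. The groups did not overlap, and the highest value was in Fh1-/- replicate 4 rather than in replicates 1 and 3. The log2 fold change was 2.66 (standard error 0.407, edgeR adjusted p = 0.021; DESeq2 adjusted p = 5.2e-09), and without both replicates 1 and 3 it was 2.90 (edgeR adjusted p = 0.041). Of its annotated exons, 67.3% are shared with a read-through transcript that joins it to Ankhd1. For Ankhd1 itself the value was 0.12 on the log2 scale (standard error 0.208, edgeR adjusted p = 0.737).

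Eif4ebp1, the best studied member of the family, was at 70.2, 20.6, 82.2, 22.8 and 25.5 CPM in Fh1-/- day 10 replicates 1 to 5, against 15.0 to 17.1 CPM in Fh1+/+ replicates. All 5 Fh1-/- values were higher, and replicates 1 and 3 were the highest. The log2 fold change was 1.41 (standard error 0.393, edgeR adjusted p = 0.073; DESeq2 adjusted p = 0.00687), and 0.48 without those replicates (edgeR adjusted p = 0.0773). Eif4ebp2 was lowest where Eif4ebp1 was highest. It was at 43.2 and 43.2 CPM in replicates 1 and 3 and at 74.3, 84.8 and 55.4 CPM in replicates 2, 4 and 5, against 45.5 to 55.8 CPM in Fh1+/+ libraries. Per exon length, the ratio of Eif4ebp1 to Eif4ebp2 counts was 4.29 and 5.02 in replicates 1 and 3, and between 0.709 and 1.21 in the other 3 Fh1-/- day 10 libraries.

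**Figure D2:**
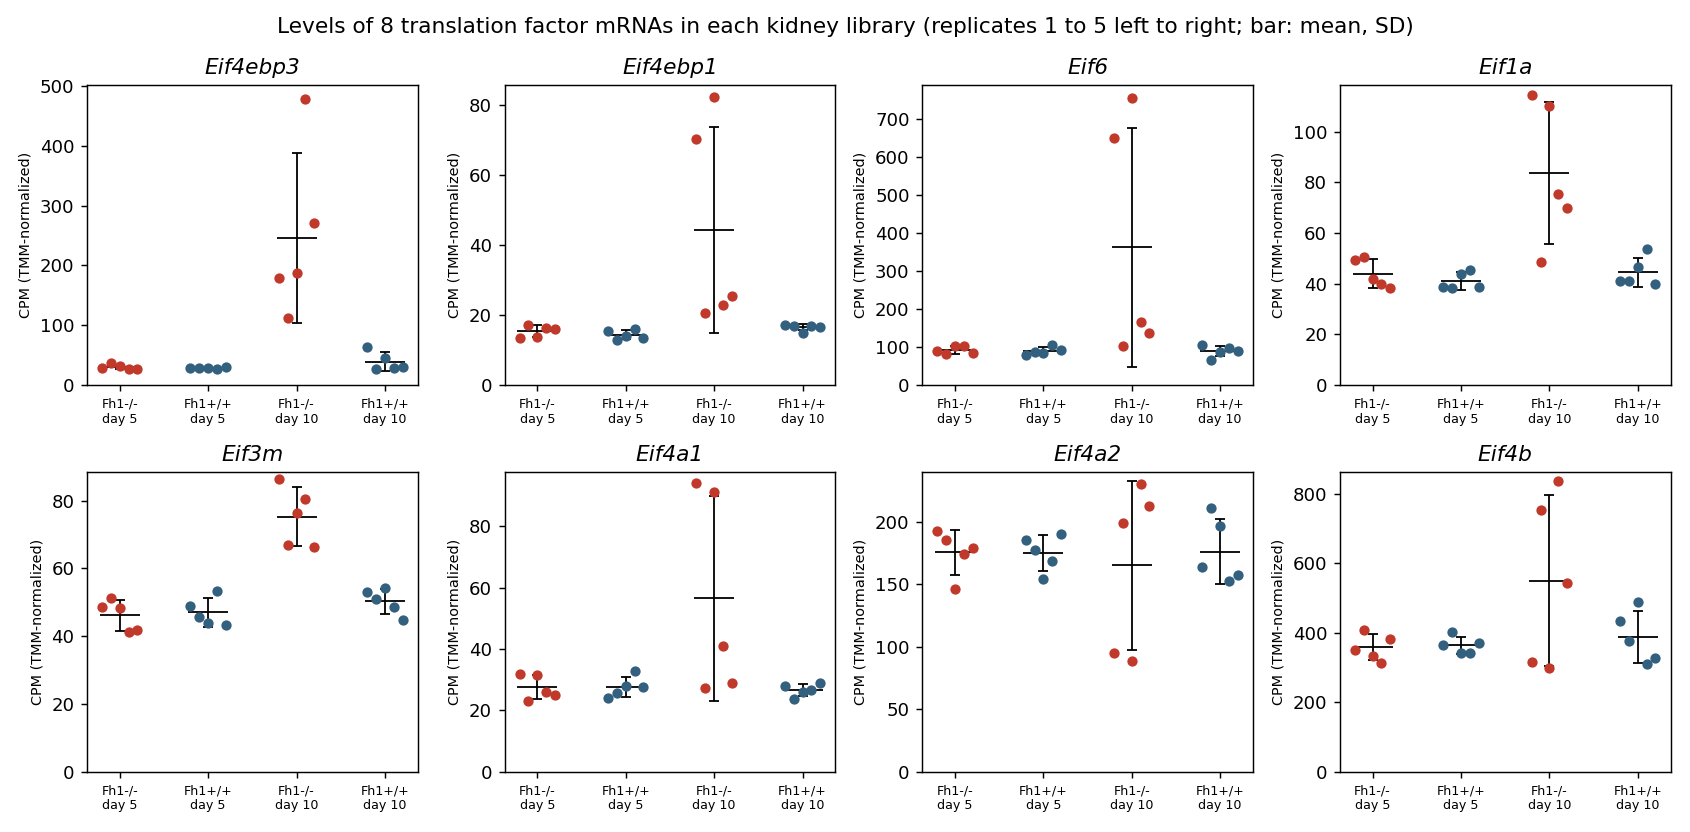
CPM (TMM-normalized) of 8 translation factor mRNAs in all 20 libraries, in columns for Fh1-/- day 5, Fh1+/+ day 5, Fh1-/- day 10 and Fh1+/+ day 10, with points for replicates 1 to 5 and black marks for the mean and SD. Eif4ebp3 is above Fh1+/+ in all 5 Fh1-/- day 10 libraries, while in replicates 1 and 3 Eif6 and Eif4a1 stand highest and Eif4a2 lowest of all libraries, and Eif4b lies below the other 3 Fh1-/- day 10 libraries.

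Among the factors of subunit joining, Eif6 stood apart from Eif5 and Eif5b. eIF6 keeps the large subunit from joining too early and acts in its biogenesis. Eif6 (chromosome 2, positions 155819832 to 155826925 of GRCm38, minus strand) was at 648, 102, 753, 167 and 136 CPM in Fh1-/- day 10 replicates 1 to 5, against 104, 66.8, 88.1, 98.2 and 90.6 CPM in Fh1+/+ replicates. Replicate 2 lay within the range of Fh1+/+ libraries and the other 4 above it. The log2 fold change was 2.00 (standard error 0.55, edgeR adjusted p = 0.0719; DESeq2 adjusted p = 0.00285), and 0.59 without replicates 1 and 3 (edgeR adjusted p = 0.135). Eif5, the GTPase-activating factor for eIF2, and Eif5b, the GTPase that joins the subunits, had log2 fold changes of 0.13 and 0.20 (edgeR adjusted p = 0.514 and 0.212).

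All 5 genes of the eIF1 group had log2 fold changes above 0, from 0.22 to 0.90. Eif1a, one of the genes for eIF1A, was at 115, 48.7, 110.2, 75.4 and 69.9 CPM in Fh1-/- day 10 replicates 1 to 5, against 40.0 to 53.7 CPM in Fh1+/+ replicates. Replicate 2 overlapped the Fh1+/+ range. The log2 fold change was 0.90 (standard error 0.219, edgeR adjusted p = 0.0556; DESeq2 adjusted p = 0.00378). Eif1, which guards start codon choice, was at 172 ± 56.5 CPM in Fh1-/- and 107 ± 9.08 CPM in Fh1+/+ kidneys (SD, n = 5 each), without overlap (edgeR adjusted p = 0.0895). Eif1ax and Eif1ad had log2 fold changes of 0.31 and 0.46 (edgeR adjusted p = 0.254 and 0.243), and without replicates 1 and 3 these were 0.01 and -0.04.

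The subunits of eIF3 were slightly higher throughout. All 13 distinct subunits tested had log2 fold changes above 0, from 0.09 to 0.59 with a median of 0.39. With total-count scaling 12 did, and without replicates 1 and 3 all 13 did, with a median of 0.23. At an unadjusted p under 0.05, 9 were higher, against 15.1% of all genes, and with total-count scaling 4 were, against 7.9%. In 6 (Eif3c, Eif3d, Eif3e, Eif3g, Eif3k and Eif3m) the genotypes did not overlap, against 4.42% of all genes. Eif3m was at 86.3, 66.9, 76.4, 80.5 and 66.4 CPM in Fh1-/- day 10 replicates 1 to 5, against 53.0, 51.1, 54.1, 48.6 and 44.8 CPM in Fh1+/+ replicates. Its log2 fold change was 0.57 (standard error 0.102, edgeR adjusted p = 0.0317; DESeq2 adjusted p = 2.44e-05), just under the fold threshold, and 0.50 without replicates 1 and 3. Eif3c, a core subunit, was at 229 ± 26.3 CPM in Fh1-/- and 171 ± 11.7 CPM in Fh1+/+ kidneys (SD, n = 5 each; edgeR adjusted p = 0.0716). Eif3g and Eif3e had log2 fold changes of 0.49 and 0.45 (edgeR adjusted p = 0.064 and 0.0729). Eif3j1, whose counts equal those of Eif3j2 in every library for a reason that was not tested, was at 9.03 ± 2.33 CPM in Fh1-/- and 7.06 ± 0.689 CPM in Fh1+/+ kidneys (SD, n = 5 each; edgeR adjusted p = 0.264).

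The 6 genes of the eIF2 group had log2 fold changes from -0.47 (Eif2s3y) to 0.56 (Eif2s3x), with a median of 0.33. Those of eIF2B, its exchange factor, ran from 0.15 to 0.74, with a median of 0.24. Eif2s1, which encodes the subunit that stress kinases phosphorylate, was at 33.5 ± 5.65 CPM in Fh1-/- and 26.3 ± 2.44 CPM in Fh1+/+ day 10 kidneys (SD, n = 5 each; log2 fold change 0.33, edgeR adjusted p = 0.145). Of the 5 eIF2B subunits, Eif2b3 had the largest log2 fold change at 0.74 (standard error 0.207, edgeR adjusted p = 0.0732), with 31.0, 15.6, 27.6, 21.5 and 16.1 CPM in Fh1-/- replicates 1 to 5, against 11.2 to 15.5 CPM in Fh1+/+ replicates. Eif2b2 did not overlap either, at 41.6 to 48.9 CPM in Fh1-/- and 32.0 to 40.2 CPM in Fh1+/+ libraries. The log2 fold changes of Eif2b1, Eif2b4 and Eif2b5 were 0.15, 0.15 and 0.25, and those of Eif2b1 and Eif2b4 were -0.021 and -0.019 with total-count scaling.

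The third subunit of eIF2 is encoded by a pair of genes on the sex chromosomes, and this pair separated the libraries in another way than genotype. Eif2s3y was between 0.0613 and 0.54 CPM in 8 libraries and between 42.4 and 54.4 CPM in the other 12. Eif2s3x was between 6.15 and 9.56 CPM in those 8 libraries and between 2.87 and 5.66 CPM in the other 12. The 8 libraries comprised 3 of 5 in Fh1-/- day 10, 2 of 5 in Fh1+/+ day 10, 2 of 5 in Fh1-/- day 5 and 1 of 5 in Fh1+/+ day 5. Fh1-/- day 10 replicates 1 and 3 were both among them. The study used mice of both sexes, and the sample titles do not give the sex. Reads of low mapping quality had been removed, and how many each gene of the pair lost was not tested. The levels of Eif2s3x and Eif2s3y are therefore not compared with each other here. With the level of 3 other Y-linked genes as a covariate, the members' median at day 10 was 0.29. The start regions of the pair are shown because they are the members that differ by chromosome, with 10 bases before the annotated start in lower case and 20 bases from it in capitals.
Eif2s3x: gagcattttcCTTTTCTCTCCGAGCAAGAT
Eif2s3y: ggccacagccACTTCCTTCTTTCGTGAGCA
They lie at chrX:94212632-94212661 (minus strand) and chrY:1010585-1010614 (plus strand) of GRCm38.p6.

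In eIF4F, the closely related helicase genes Eif4a1 and Eif4a2 stood apart in opposite directions in the same libraries. Eif4a1 was at 94.3, 27.2, 91.1, 40.9 and 29.0 CPM in Fh1-/- day 10 replicates 1 to 5, against 23.9 to 28.8 CPM in Fh1+/+ replicates. Eif4a2 was at 95.4, 199, 88.7, 230.2 and 213 CPM in the Fh1-/- replicates, against 152 to 211 CPM in Fh1+/+ replicates. Replicates 1 and 3 were thus the highest of all for Eif4a1 and the lowest of all for Eif4a2. Per exon length, the ratio of Eif4a1 to Eif4a2 was 1.22 and 1.27 in these replicates, and between 0.14 and 0.267 in the other 18 libraries of the series. The log2 fold changes at day 10 were 1.07 (standard error 0.353, edgeR adjusted p = 0.101) for Eif4a1 and -0.11 (standard error 0.271, edgeR adjusted p = 0.811) for Eif4a2, and without replicates 1 and 3 they were 0.28 for both.

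**Figure D3:**
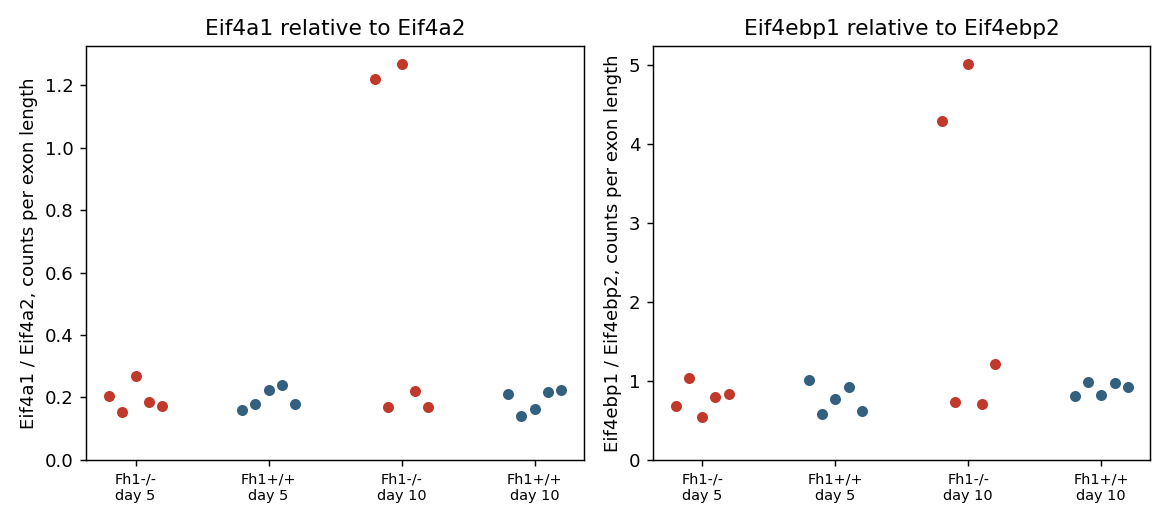
Ratio of Eif4a1 to Eif4a2 on the left and of Eif4ebp1 to Eif4ebp2 on the right, as counts per exon length, with 1 point per library in columns for Fh1-/- day 5, Fh1+/+ day 5, Fh1-/- day 10 and Fh1+/+ day 10. Replicates 1 and 3 of Fh1-/- day 10 stand at 1.22 and 1.27 on the left, and all other libraries lie at or under 0.267.

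Neither scaffold gene named here passed the test. Eif4g1 was at 368 to 436 CPM in Fh1-/- and 322 to 367 CPM in Fh1+/+ day 10 libraries, without overlap (log2 fold change 0.19, edgeR adjusted p = 0.249). Eif4g3 was the only member lower at an unadjusted p under 0.05, at 105, 150.1, 96.2, 120 and 103 CPM in Fh1-/- replicates 1 to 5, against 186, 149.7, 131, 182 and 262 CPM in Fh1+/+ replicates (log2 fold change -0.68, standard error 0.197, edgeR adjusted p = 0.0774). Within each genotype its lower values were in the libraries of low Eif2s3y (Fh1-/- replicates 1, 3 and 5, Fh1+/+ replicates 2 and 3). The fold change given is from a fit of genotype alone, without that split. Eif4e, the cap-binding protein, was at 39.9 ± 9.53 CPM in Fh1-/- and 35.1 ± 4.00 CPM in Fh1+/+ kidneys, and Eif4e3, a relative of it, at 15.2 ± 4.69 CPM in Fh1-/- and 13.8 ± 2.83 CPM in Fh1+/+ kidneys (SD, n = 5 each; edgeR adjusted p = 0.517 and 0.737). Eif4b, which stimulates the helicase and is named here after its values were seen, was at 317, 753, 299, 836 and 544 CPM in Fh1-/- replicates 1 to 5, against 310.4 to 488 CPM in Fh1+/+ replicates. It was higher than every Fh1+/+ library in replicates 2, 4 and 5 only. Without replicates 1 and 3, DESeq2 called 2 members higher, Eif4b and Eif4ebp3, against 1.57% of all genes, and edgeR called 0, against 0.0135%.

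Among the elongation factors, Eef1a1, with 2384 ± 299 CPM in Fh1-/- and 1627 ± 268 CPM in Fh1+/+ day 10 kidneys (SD, n = 5 each), differed by 0.54 on the log2 scale (standard error 0.161, edgeR adjusted p = 0.0835; DESeq2 adjusted p = 0.00446). Eef1b2, which reloads eEF1A with GTP, was at 245 ± 60.0 CPM in Fh1-/- and 170.4 ± 16.1 CPM in Fh1+/+ kidneys (SD, n = 5 each; edgeR adjusted p = 0.101). Eef2 was at 1990, 2620, 2275, 2851 and 2547 CPM in Fh1-/- replicates 1 to 5, against 1729 to 2425 CPM in Fh1+/+ replicates (log2 fold change 0.30, edgeR adjusted p = 0.243). Eef2k, the kinase that switches eEF2 off, was at 9.77 ± 2.43 CPM in Fh1-/- and 10.3 ± 2.01 CPM in Fh1+/+ kidneys (SD, n = 5 each). Eif5a had a log2 fold change of 0.23 (edgeR adjusted p = 0.526), and its lowly expressed relative Eif5a2 one of 0.71 (standard error 0.204, edgeR adjusted p = 0.0771), at 7.78 to 16.7 CPM in Fh1-/- and 6.15 to 9.23 CPM in Fh1+/+ libraries. Eef1a2, known from muscle and neurons, had 37 reads in Fh1-/- day 10 replicate 2 and at most 6 in any other library, and was not tested. The 5 skeletal muscle markers summed to 1.41 CPM in that library. The 6 fat cell markers summed to 450.0 CPM there, against 4.88 to 25.1 CPM in the other 4 Fh1-/- day 10 libraries and 1.43 to 222 CPM in Fh1+/+ day 10 libraries, and their part in the Eef1a2 reads was not tested. Eif4e1b had 0 reads in all 20 libraries.

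Library by library, the median member stood 0.517, 0.125, 0.568, 0.284 and 0.143 above the mean of Fh1+/+ day 10 libraries on the log2 scale in Fh1-/- replicates 1 to 5, and between -0.0954 and 0.0459 in the Fh1+/+ libraries themselves. All 5 Fh1-/- values were thus above all 5 Fh1+/+ values. Replicates 1 and 3 were both above the other 3 Fh1-/- libraries in 32 of 57 members and both below them in 8, against 32.3% and 34.2% of all genes tested. Among the 8 were Eif4a2, Eif4b, Eif4ebp2, Eef2 and Eif2a. These replicates are the ones with tubular injury sums of 137000 and 130000 CPM, and the part of that difference in the members' values was not tested.

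**Figure D4:**
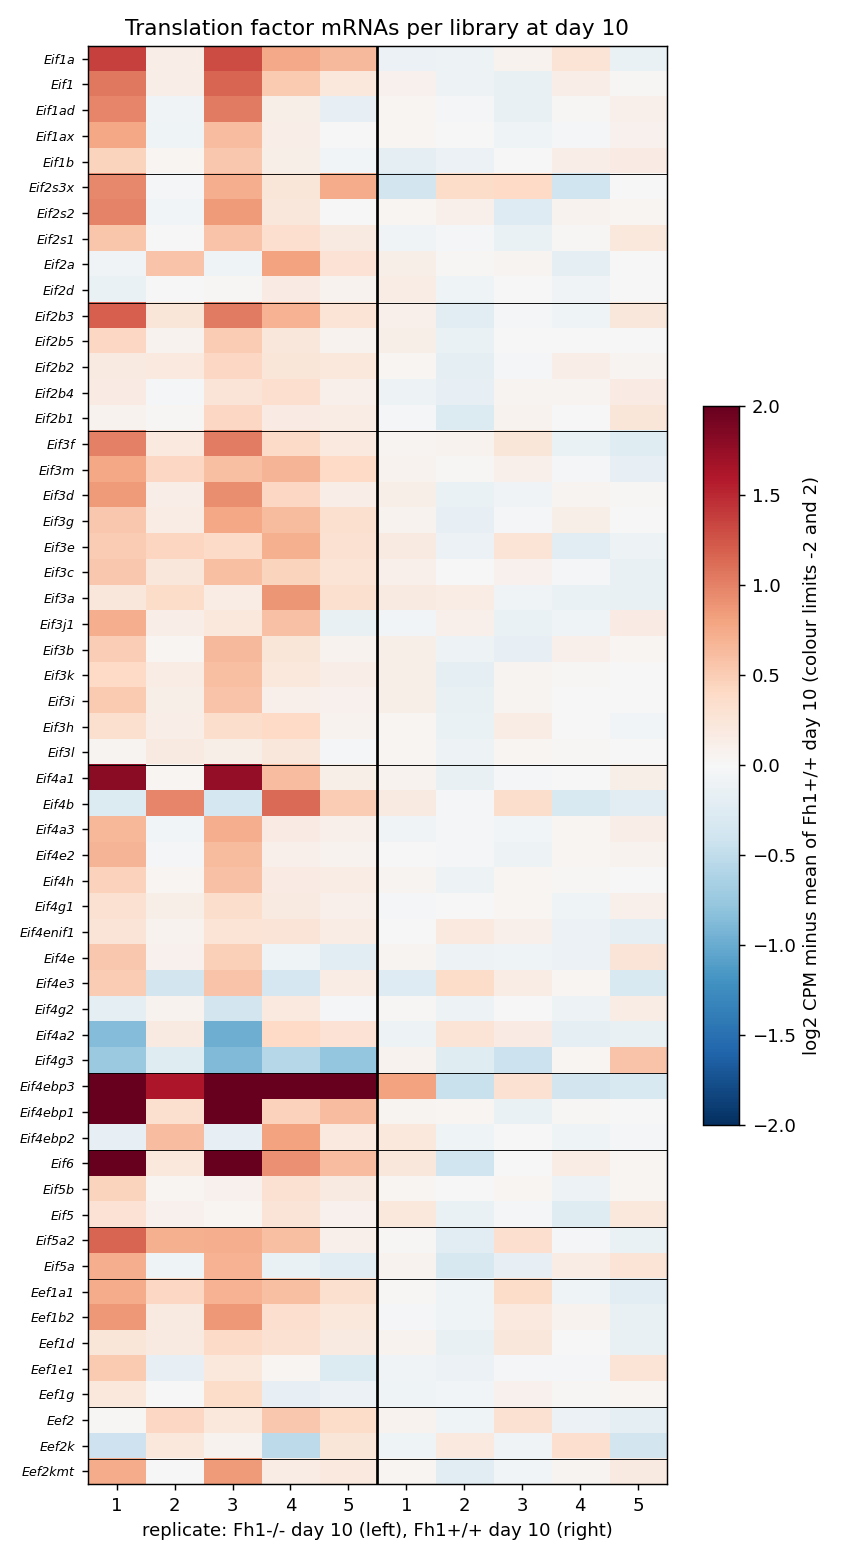
Log2 CPM of each translation factor mRNA minus the mean of Fh1+/+ day 10 libraries, with members in rows by role (Eif2s3y left out) and the 5 Fh1-/- replicates left of the 5 Fh1+/+ replicates. Red is higher and blue lower, with colours limited at -2 and 2. Columns 1 and 3 of Fh1-/- are at the red limit for Eif6, Eif4ebp1 and Eif4ebp3 and blue for Eif4a2, columns 4 and 5 are at the red limit for Eif4ebp3, and the median member is above 0 in all 5 Fh1-/- columns, from 0.125 to 0.568.

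Other genes of the pathway were counted from fixed lists. The median log2 fold change at day 10 was 0.15 over 16 genes of the mTORC1 and MAPK arm. It was 0.14 over 10 genes of initiation and poly(A), -0.073 over 6 genes of hypusine on eIF5A and -0.054 over 5 genes of termination. By edgeR and by DESeq2, 0 genes of these lists passed both limits. The 10 members known for mRNAs with a 5' terminal oligopyrimidine tract, which mTORC1 regulates at the level of translation, all had log2 fold changes above 0, with a median of 0.42, compared with 0.30 for the 47 other members tested; 9 did with total-count scaling, and 9 without Fh1-/- replicates 1 and 3. By edgeR 0 of the 10 passed, and by DESeq2 0, compared with 4 of the 47 other members by DESeq2. At an unadjusted p under 0.05, 7 were higher, against 36.2% of the other members and 15.1% of all genes. With total-count scaling 3 were, against 7.9% of all genes. In 1 of the 10 every Fh1-/- library lay above every Fh1+/+ library, against 23.4% of the other members and 4.42% of all genes. Eif3f, whose log2 fold change was 0.59, has a run of pyrimidines from its annotated start (chr7:108934405-108934434, plus strand of GRCm38.p6), and Eef2, with 0.30, has none there (chr10:81176621-81176650, plus strand). Both are printed with the 20 bases from the start in capitals.
Eif3f: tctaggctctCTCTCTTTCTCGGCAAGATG
Eef2: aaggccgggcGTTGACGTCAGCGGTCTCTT
Of 8 genes around eIF2 phosphorylation, edgeR called 0 (4 higher at an unadjusted p under 0.05, against 15.1% of all genes) and DESeq2 called 2 higher, against 3.49% of all genes. These were Atf4, the transcription factor translated when eIF2 is phosphorylated, at 167 ± 55.7 CPM in Fh1-/- and 93.0 ± 7.44 CPM in Fh1+/+ kidneys, and Ppp1r15a, which brings a phosphatase to eIF2, at 46.1 ± 19.9 CPM in Fh1-/- and 21.6 ± 3.48 CPM in Fh1+/+ kidneys (SD, n = 5 each; DESeq2 adjusted p = 0.00593 and 0.00653). Both were highest in replicates 1 and 3, where Atf4 was at 221 and 226 CPM and Ppp1r15a at 58.7 and 72.3 CPM. Their log2 fold changes were 0.83 for Atf4 and 1.08 for Ppp1r15a, and without these replicates 0.47 and 0.62. Of 10 mitochondrial translation factors, 8 had log2 fold changes below 0, with a median of -0.31. By edgeR 0 passed (5 lower at an unadjusted p under 0.05, against 11.9% of all genes) and by DESeq2 0. Without Fh1-/- replicates 1 and 3 the median was -0.17, and 1 was lower at that p, against 8.33% of all genes. Tufm, the mitochondrial counterpart of eEF1A, was at 12.1 ± 3.23 CPM in Fh1-/- and 18.8 ± 2.18 CPM in Fh1+/+ kidneys (SD, n = 5 each; edgeR adjusted p = 0.0783).

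At day 5 no difference of this kind was detected. The members' median log2 fold change was -0.01, with 25 of 57 above 0 and a range from -0.41 (Eif2s3y) to 0.22 (Eif2s3x). By edgeR 0 members passed, against 0.0347% of all 14404 genes, 0 had an unadjusted p under 0.05, against 4.78% of all genes, and DESeq2 called 0. In 0 members did every Fh1-/- library lie above every Fh1+/+ library, against 0.521% of all genes. Eif4ebp3 was at 29.6 ± 3.95 CPM in Fh1-/- and 27.7 ± 1.02 CPM in Fh1+/+ kidneys, Eif6 at 92.5 ± 10.0 CPM in Fh1-/- and 89.1 ± 10.4 CPM in Fh1+/+ kidneys, and Eif4ebp1 at 15.3 ± 1.69 CPM in Fh1-/- and 14.4 ± 1.32 CPM in Fh1+/+ kidneys (SD, n = 5 each; adjusted p = 1 for each from edgeR). The lowest unadjusted p values from edgeR were 0.0599 for Eif3h (log2 fold change -0.11), 0.0827 for Eif2d (-0.12) and 0.0869 for Eif2b4 (-0.12).

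The genotype difference at day 10 was set against that at day 5 in a fit of all 20 libraries. The median member difference between the days was 0.28, with 51 of 57 above 0, and 24 were higher at an unadjusted p under 0.05 (42.1%, against 11.8% of all genes). By edgeR 0 members passed both thresholds, against 0.0335% of all genes. DESeq2 called 3 members higher, Eif4ebp3, Eif3m and Eef1a1, which was 5.26% of those tested, against 1.33% of all genes. The difference was 2.56 for Eif4ebp3 (standard error 0.422, edgeR adjusted p = 0.0115) and 0.59 for Eif3m (standard error 0.132, edgeR adjusted p = 0.0407). Without Fh1-/- day 10 replicate 2, edgeR called 4 members (Eif4ebp3, Eif1a, Eif3m and Eif3g) higher, against 1.43% of all genes. At day 10 alone it called 2 higher without that library (Eif4ebp3 and Eif1a), against 1.15% of all genes.

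Between the days in Fh1+/+ kidneys the members did not differ detectably. Of 57 members 0 passed by edgeR (0 of all genes, 0.0%) and by DESeq2, and 1 had an unadjusted p under 0.05, against 3.97% of all genes. That was Eif4ebp1, at 16.5 ± 0.861 CPM at day 10 and 14.4 ± 1.32 CPM at day 5 (SD, n = 5 each; log2 fold change 0.20, edgeR adjusted p = 0.948). Eif4ebp3 had the highest log2 fold change of the members between the days, at 0.47. It was at 38.3 ± 15.9 CPM at day 10 and 27.7 ± 1.02 CPM at day 5 (SD, n = 5 each). Its day 10 values ran from 26.5 to 63.6 CPM and its day 5 values from 26.2 to 28.9 CPM. Eif4e2 and Eif2d had log2 fold changes of -0.11 and -0.14 (edgeR adjusted p = 0.948 each).

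Levels between members were compared per exon length, taken over all annotated exons of a gene. The removal of reads of low mapping quality may have lowered some genes more than others, which was not tested. Ranks between genes are therefore approximate. In CPM per kilobase of annotated exon, Eef1a1 was the highest member, at 956 in Fh1-/- and 653 in Fh1+/+ day 10 kidneys, and Eef2 came next, at 739 in Fh1-/- and 595 in Fh1+/+. Eif5a was at 150.0 in Fh1-/- and 127 in Fh1+/+ kidneys. Eif4ebp3 was at 330.0 in Fh1-/- kidneys, where it came after Eef1a1 and Eef2, and at 51.4 in Fh1+/+ kidneys, where it ranked 9. Eif4a1, at 13 in Fh1-/- and 6.16 in Fh1+/+ kidneys, was below Eif4a2 in the group means, at 30.9 in Fh1-/- and 33.0 in Fh1+/+ kidneys, but above it in Fh1-/- replicates 1 and 3, as their ratios of 1.22 and 1.27 show.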

How the data were processed

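Kidney libraries of Fh1-/- and Fh1+/+ mice at 2 time points were grouped by their titles, 5 per group, each labelled as a replicate. The labels do not say that each came from its own animal, and in that case p values reflect library spread alone, which may be technical. The deposited values are raw counts per gene symbol. The authors made them from stranded polyadenylated RNA libraries mapped with STAR 2.6.0c to GRCm38, with reads of low mapping quality and adapters removed, and counted with Rsubread on GENCODE M17. The sources used here do not give the strand setting of Rsubread, so overlapping antisense genes and near-identical paralogs may share reads.

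Counts were fitted with edgeR 4.0.16 (TMM, filterByExpr, quasi-likelihood test, Benjamini-Hochberg adjustment over all genes tested) in R 4.3.3, with 10 libraries for each day and 20 for the contrast of the days. Calls needed an adjusted p under 0.01 and an absolute log2 fold change over 0.58. DESeq2 1.42.0, limma 3.58.1 with voom quality weights, other scalings and filters, a Y-linked covariate, a replicate block, 1 fit of all libraries and leaving out libraries were the alternatives. The scripts were tested on simulated data. Within groups, 40 library pairs differed by a chi-square per degree of freedom of 7.49 to 373, so the counts of no library were a copy of another's. These values cannot show whether libraries came from separate animals. The lowest value, 7.49, was that of Fh1-/- day 10 replicates 1 and 3. CPM are TMM-normalized over all 20 libraries. Exon lengths and positions are from GENCODE vM21 on the same build.

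The members, lists and named genes were chosen with earlier results of these data known. Named were members called by edgeR, the lowest p values (14 at day 10, 6 at day 5, 4 for the difference and 4 between days in Fh1+/+, with a mean of 1 CPM or more), the member highest per length and a fixed list of core factors. Eif2a, Eif3d, Eif3f, Eif3k, Eif4b, Eif5 and Eif5b are named in addition, after their values were seen. Of Eif3d exons, 43.3% overlap an antisense gene.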

Additional observations from a re-analysis of the deposited data

Results flagged for a closer look

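In groups of 5 libraries, the gap of the highest or lowest library to its neighbour was set against the group's range, over 37 named genes in 4 groups (148 sets), and 9 sets passed Dixon's limit of 0.71. Chance flags about 1 set in 20. Eef1a2 was at 2.08 CPM in Fh1-/- day 10 replicate 2, against at most 0.184 CPM in the others. Eif2b2 was at 48.9 CPM in Fh1-/- day 10 replicate 3 (others 41.6 to 43.4) and at 44.5 CPM in Fh1-/- day 5 replicate 4 (others 37.7 to 38.2). Eif4ebp1 was at 15.0 CPM in Fh1+/+ day 10 replicate 3 (others 16.6 to 17.1), and Eif4ebp2 at 55.8 CPM in Fh1+/+ day 10 replicate 1 (others 45.5 to 47.8). Eif3c was at 198 CPM in Fh1+/+ day 5 replicate 3 (others 161 to 168). In Fh1+/+ day 5 replicate 1, 3 genes stood apart: Eif2s3y at 0.149 CPM (others 42.5 to 50.9), Eif4e3 at 19.8 CPM (others 9.39 to 12.3) and Eif4g3 at 150.0 CPM (others 236 to 263). That library was the only one of its group with Eif2s3y under 1 CPM. Libraries with Eif2s3y under 1 CPM also held higher Eif4e3 and lower Eif4g3 than the rest of their group in the other groups.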

How the results depend on the processing

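At day 10 the count of members called was 0 in the edgeR fit, 2 when any fold at an adjusted p under 0.05 sufficed, 4 with DESeq2, 7 in 1 fit of all 20 libraries and 2 with DESeq2 leaving out both Fh1-/- day 10 replicates 1 and 3, and ranged from 0 to 2 over fits that left out 1 library each. For the difference between the days it was 2 on that same looser limit, 3 with DESeq2, and 1 each with no filter, the stricter filter, the Y-linked covariate and limma-voom, and ranged from 0 to 4 with 1 library left out, with 4 when Fh1-/- day 10 replicate 2 was dropped, and 1 when either Fh1-/- day 10 replicate 4 or Fh1+/+ day 10 replicate 1 was dropped. The cause was not tested. The members' median log2 fold change at day 10 ranged from 0.12 to 0.31 over settings other than leaving out 1 library, and from 0.24 to 0.35 over those. The replicate numbers did not pair the libraries (correlations of deviations from -0.514 to 0.329), and with the replicate block 0 members were called and the median was 0.28. Of 792 single-gene values at day 10, 747 kept their direction and side of the threshold, 14 passed it and 31 changed sign. With total counts alone Eif2b1 was at -0.0205, Eif2b4 at -0.0189, Eif2d at -0.149, Eif4e at -0.0182 and Eif4e3 at -0.0927, and Eif2d was at -0.0543 with upper quartile scaling. With limma-voom Eif4a2 was at 0.18, Eif4e at -0.0268, Eif4e3 at -0.10 and Eif5a at -0.11, and Eif4e3 was at -0.015 with the Y-linked covariate. Without both replicates 1 and 3 (edgeR, then DESeq2), a choice made after seeing the data, Eif1ad was at -0.0426 and -0.0524, Eif2s3y at 0.28 and 0.27, Eif4a2 at 0.28 and 0.27, Eif4e at -0.0808 and -0.0906, Eif4e3 at -0.19 and -0.20, and Eif5a at -0.16 and -0.17. With 1 library left out, the lowest and highest values were -0.171 and 0.0215 for Eef2k, -0.0187 and 0.0575 for Eif2d and -0.253 and 0.0536 for Eif4a2.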
